A study of Mus musculus with 3 samples.

Results

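Open chromatin was described around the 8 interferon regulatory factor (IRF) genes Irf1, Irf2, Irf3, Irf4, Irf5, Irf7, Irf8 and Irf9, of 21951 protein-coding genes in the GENCODE annotation of the mouse genome (GRCm38, the build also called mm10). The members were a fixed set of names, and every ATAC-seq peak that overlapped a gene body extended by 30 kb on both sides was taken. Overlapping peaks of the 4 peak lists were merged, which gave 59 open regions in the 8 windows of 50965 regions in the whole data set. ATAC-seq measures open chromatin by the sites at which the Tn5 transposase cuts DNA. The material was cultured pre/pro-B cells of mouse bone marrow, from C57BL/6 mice homozygous for wildtype Cdk6 or for the kinase-inactive mutant Cdk6 K43M (Cdk6 +/+ and Cdk6 KM/KM). All lines, wildtype ones included, were transformed with a retrovirus expressing the fusion kinase BCR-ABL(p185), so that no untransformed cells stand beside them. There were 2 lines per genotype and 1 peak list per line. One of the wildtype lists carried no sample label of its own and is called WT unnumbered below. It was placed in the wildtype group by the description of the series. By that description, 1 wildtype line entered through a renewed analysis of its data, and WT unnumbered was taken to be that line. It belongs to no sample of the series, unlike the other lists. Whether its library was prepared together with theirs was not tested. The comparison asks whether accessibility around these genes differs between cells with active and with kinase-inactive CDK6. Any p-value given here sets a difference between genotypes against the spread between these few lines, which is partly shared over all regions. With 1 list per line, variation between lines and between libraries cannot be told apart.

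IRFs are transcription factors that share a DNA-binding domain and bind GAAA repeats. IRF1 is an activator of interferon-stimulated genes and IRF2 competes with it for the same sites. IRF3 and IRF7 are switched on by sensors of viral nucleic acids and induce the interferon genes, and IRF5 acts downstream of Toll-like receptors. IRF9 is the DNA-binding part of the complex that carries the type I interferon signal to the nucleus. IRF4 and IRF8 bind DNA weakly alone and pair with ETS-family proteins such as PU.1, and in pre-B cells they act in the exit from the cycling stage and in immunoglobulin light chain rearrangement.

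The 4 lists held 33038 (WT unnumbered), 34248 (WT replicate 2), 39038 (K43M replicate 1) and 34752 (K43M replicate 2) peaks, with median fold enrichments between 6.61 and 6.94. Fold enrichment, as given by the peak caller, is the number of extended cut sites piled up at a summit over that of the local background. Before the division 1 is added to both numbers, which lowers the ratio most where the background is low. Promoter peaks were present at 9 of 9 B-lineage marker genes in 3 lists and at 7 of 9 in K43M replicate 2, where Cd79b and Rag1 had none. Of 4 T-lineage markers, Tcf7 alone had a promoter peak, in all 4 lists, and the 3 erythroid markers had none in any. Of 5 myeloid markers, Lyz2 and Cebpe had peaks in both wildtype lists, Cebpe had one in K43M replicate 1, and no myeloid marker had one in K43M replicate 2. Of 4 markers of other tissues, Gfap had a peak in WT replicate 2 only.

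The 3 promoters whose RefSeq sequences held letters of the interferon pathway are shown because several IRF genes are themselves induced by interferons. That of Irf4 is shown beside them as one without such letters. The 2 distal regions shown were chosen by their values. The first had the largest difference between genotypes among the regions open in all lists. The other was the strongest of those found in both lists of a single genotype only. Promoter sequences were taken from RefSeq (GRCm38), which held 11 sequences for the 8 genes, and the 250 bases before the start are shown. The distal ones are the 201 bases centred on the summit. Capitals mark matches on either strand to GAAANNGAAA (the interferon-stimulated response element, ISRE), GGAANNGAAA (the ETS-IRF composite element, EICE), TTCNNNGAA (the site of activated STAT dimers, GAS) or TGANTCA (AP-1), and in Irf2 the first 2 of these overlap.
Irf1 upstream (chr11:53769764-53770013, plus strand): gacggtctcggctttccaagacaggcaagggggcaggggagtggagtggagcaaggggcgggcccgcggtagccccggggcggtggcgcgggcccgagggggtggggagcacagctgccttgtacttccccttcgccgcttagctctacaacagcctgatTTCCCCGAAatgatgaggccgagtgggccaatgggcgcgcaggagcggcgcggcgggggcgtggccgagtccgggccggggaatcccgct
Irf2 upstream (chr8:46739495-46739744, plus strand): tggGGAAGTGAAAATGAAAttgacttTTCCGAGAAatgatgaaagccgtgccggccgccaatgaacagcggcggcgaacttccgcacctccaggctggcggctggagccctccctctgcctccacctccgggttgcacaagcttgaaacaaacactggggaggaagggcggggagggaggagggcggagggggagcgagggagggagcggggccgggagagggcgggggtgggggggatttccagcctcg
Irf8 upstream (chr8:120736108-120736357, plus strand): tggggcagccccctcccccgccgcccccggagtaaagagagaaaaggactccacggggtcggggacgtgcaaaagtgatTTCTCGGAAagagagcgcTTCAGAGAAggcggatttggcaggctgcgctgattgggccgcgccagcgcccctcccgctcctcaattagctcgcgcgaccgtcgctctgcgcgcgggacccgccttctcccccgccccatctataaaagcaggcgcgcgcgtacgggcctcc
Irf4 upstream (chr13:30748983-30749232, plus strand): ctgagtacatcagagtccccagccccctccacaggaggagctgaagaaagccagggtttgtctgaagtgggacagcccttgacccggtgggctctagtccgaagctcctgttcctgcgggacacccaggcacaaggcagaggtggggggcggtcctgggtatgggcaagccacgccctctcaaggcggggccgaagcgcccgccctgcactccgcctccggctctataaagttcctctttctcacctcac
Irf2 downstream region (chr8:46850182-46850382, plus strand): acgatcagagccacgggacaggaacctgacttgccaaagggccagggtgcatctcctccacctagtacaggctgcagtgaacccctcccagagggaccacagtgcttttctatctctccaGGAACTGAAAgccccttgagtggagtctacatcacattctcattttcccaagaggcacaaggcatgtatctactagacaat
Irf4 downstream region open in wildtype lists only (chr13:30786242-30786442, plus strand): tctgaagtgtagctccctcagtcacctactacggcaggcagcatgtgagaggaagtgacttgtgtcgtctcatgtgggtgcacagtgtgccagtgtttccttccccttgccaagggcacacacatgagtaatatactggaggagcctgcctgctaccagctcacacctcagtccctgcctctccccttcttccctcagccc

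The ISRE letters were found in 1 of the 11 IRF promoter sequences of 300 bases, that of Irf2, and in 3.44% of all 32851 such sequences. The same Irf2 stretch held the EICE letters, which occurred in 2.72% of all promoter sequences. GAS letters stood in 3 of the 11, those of Irf1, Irf2 and Irf8, and in 8.3% of all, and Irf8 held a pair of them. AP-1 letters were found in 0 of the 11 and in 7.81% of all. In the 201 bases around the summit, ISRE letters were found in 2 of the 59 open regions near the IRF genes and in 2.88% of 50867 regions over the genome. For EICE the numbers were 5 of 59 and 3.92%, for GAS 8 of 59 and 6.82%, and for AP-1 5 of 59 and 7.6%. These included GAS letters at the summit of the Irf9 promoter region and EICE and AP-1 letters at that of the internal Irf5 promoter. A match of letters does not show that a factor bound there. The bases within 500 bp of the 5′ end ranged from 52.5% G and C in Irf7 to 70.3% in Irf5, with a median of 58.5% over the protein-coding genes whose promoters were open in all 4 lists. The ratio of observed to expected CpG was 0.922 in Irf1, 0.786 in Irf5, 0.74 in Irf3, 0.735 in Irf8 and 0.698 in Irf2, beside a median of 0.739 over those genes. In Irf4 (0.364), Irf9 (0.327) and Irf7 (0.319) it was lower.

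All 8 IRF genes had a promoter peak, between 2000 bp before and 200 bp after an annotated start, in each of the 4 lists. Over all protein-coding genes the share with a promoter peak in all 4 lists was 47.6%. The highest promoter peak of each list gave a mean fold enrichment of 12.2 ± 1.82 (SD, n = 4 lists) for Irf9, 10.5 ± 0.718 for Irf1 and 10.3 ± 1.52 for Irf8. Irf2 followed with 9.05 ± 1.05, Irf4 with 8.61 ± 1.22 and Irf3 with 7.96 ± 0.796. The lowest values were those of Irf7 with 6.14 ± 0.576 and Irf5 with 5.52 ± 0.431. At both of these genes the highest peak of K43M replicate 1 lay in another promoter region than those of the other lists. Among the 10455 protein-coding genes with a promoter peak in all 4 lists, these means ranged from the 80.4 percentile for Irf9 to the 7.25 and 3.88 percentiles for Irf7 and Irf5. In this order only Irf3 and Irf7 were neighbours whose ranges over the 4 lists did not overlap.

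**Figure D1:**
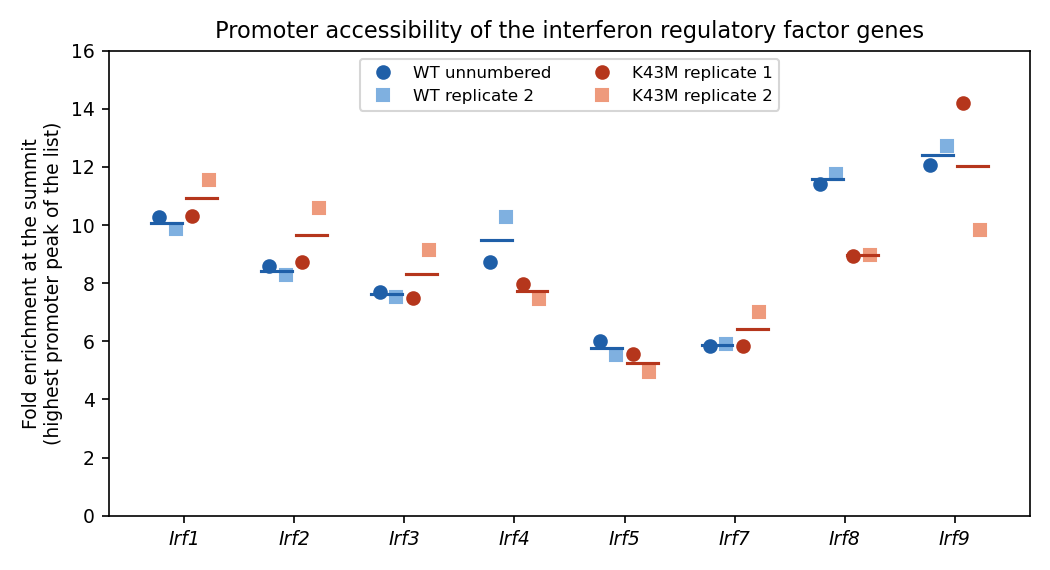
Fold enrichment at the summit of the highest promoter peak of each IRF gene (vertical axis, from 0) in each of the 4 lists, with blue points for the wildtype and red points for the K43M lists and bars for the mean of the 2 lists of a genotype. Irf8 and Irf4 lie lower in both K43M lists, and the K43M values of Irf9 span 9.84 to 14.2.

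By the highest promoter peak of each list, both K43M values lay below both wildtype values in 2 of the 8 genes, Irf4 and Irf8, and above them in 2, Irf1 and Irf2. Over all promoters open in the 4 lists, 18.3% lay below and 21.5% above in the same way, so the shares among the IRF genes were close to the background. At Irf5 the peak of K43M replicate 1 (5.57) came from the upstream start. At its internal promoter region, open in all lists, both K43M values (4.92 and 4.95) lay below both wildtype values (6.01 and 5.54).

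Of the 59 regions, 28 had a peak in all 4 lists, which is 47.5% beside 43.5% of all regions within 30 kb of a protein-coding gene. Strictly wildtype-only regions, with a peak in both wildtype lists and in no K43M list, numbered 2 (background 4.07%), and strictly K43M-only regions numbered 2 (background 7.75%). Another 20 regions (33.9%, beside 27.2% of all regions near protein-coding genes) had a peak in a single list, with fold enrichments of 3.29 to 7.56 (median 4.59), and the 7 remaining ones were mixed. In the IRF windows, 12 regions overlapped a promoter of the IRF gene itself, 13 a promoter of another gene, and 34 were distal, that is outside any promoter window. Of the 34 distal regions 10 were open in all 4 lists (background outside promoters 29.2%), 2 were strictly wildtype-only (5.33%) and 1 was strictly K43M-only (9.01%). Distal peaks numbered 21 and 23 in the wildtype lists and 21 and 18 in the K43M lists. Without the WT unnumbered list, 8 regions were wildtype-only and 5 K43M-only, since a single wildtype list then defined the pattern.

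**Figure D2:**
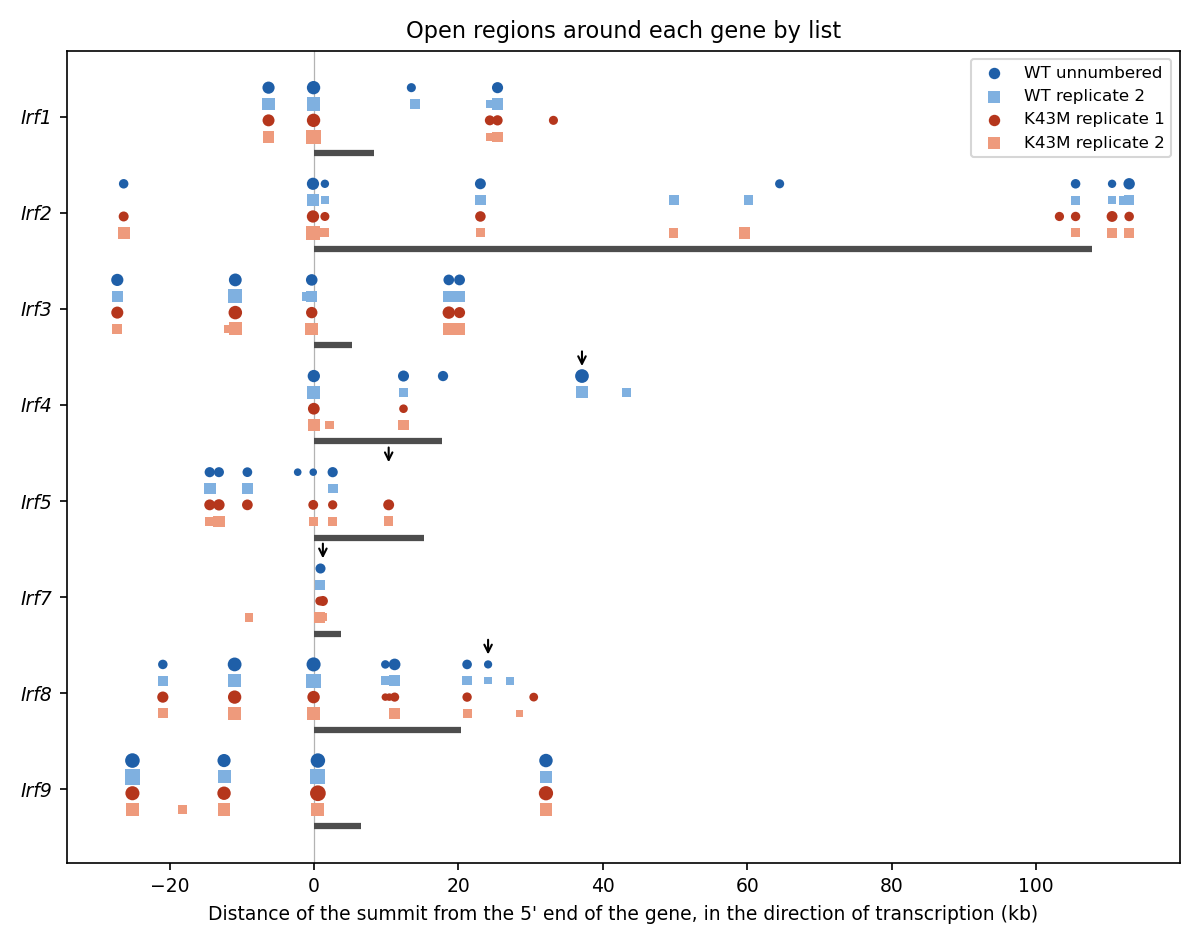
Open regions around each IRF gene by list, with the distance of the summit from the 5′ end of the gene in kb along the horizontal axis, 1 row of symbols per list, symbol area proportional to fold enrichment and dark bars for the gene bodies. Arrows mark the 4 regions present in both lists of 1 genotype and in no list of the other.

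Irf1 (chr11:53770014-53778374, plus strand) had 7 regions. Its promoter region, with the GAS letters shown above, had fold enrichments of 10.3 and 9.87 in the wildtype and 10.3 and 11.5 in the K43M lists. The log2 difference K43M minus wildtype was 0.12 ± 0.14 (SE), which did not pass the threshold (limma, Benjamini-Hochberg adjusted p = 0.813). The strongest region outside its promoter, at -6306 bp in the promoter window of the microRNA gene Mir7671, had 8.55 and 8.61 in the wildtype and 8.26 and 7.98 in the K43M lists. Downstream, 25417 bp from the 5′ end in an intron of the neighbouring gene Gm12216, a region open in all lists had values of 7.14 and 7.11 in the wildtype and 6.07 and 6.14 in the K43M lists. Immediately before it, at 24350 bp, a weaker peak was present in WT replicate 2 (3.43) and in both K43M lists (5.73 and 4.04).

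Irf2 (chr8:46739732-46847458, plus strand) is the longest of the genes and had 13 regions, more than any other member. Its promoter region held the overlapping ISRE and EICE letters and had fold enrichments of 8.59, 8.27, 8.75 and 10.6, in the order WT unnumbered, WT replicate 2, K43M replicate 1 and K43M replicate 2. The log2 difference was 0.19 ± 0.17 (limma, Benjamini-Hochberg adjusted p = 0.716). A second region 1500 bp into the gene, in the promoter window of the noncoding gene Gm16675, had 4.07, 3.68, 4.69 and 4.51. Within the gene body a region at 23044 bp, intronic, was open in all lists with 6.90, 6.56, 6.41 and 4.50. In the promoter window of an internal start, at 64497 bp, WT unnumbered alone had a peak (4.77).

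Past the end of Irf2 lay 2 intergenic regions open in all 4 lists whose differences had opposite signs. The region at chr8:46850113-46850936, which holds EICE letters, had fold enrichments of 4.04 and 4.12 in the wildtype and 6.84 and 6.01 in the K43M lists. Pileups at its summit were 25 and 29 cut sites in the wildtype and 54 and 42 in the K43M lists, so both measures were higher in both K43M lists. Its log2 difference in fold enrichment was 0.65 ± 0.20, the highest of the 28 shared regions, and did not pass the threshold (limma, Benjamini-Hochberg adjusted p = 0.196). On pileups in place of fold enrichment the difference was 0.93 ± 0.24 and passed it (limma, Benjamini-Hochberg adjusted p = 0.0341). On pileups limma called 4.22% of all shared regions, and this was 1 of the 28 in the IRF windows, a share near that background. At chr8:46852315-46852976 the fold enrichments were 7.50 and 6.20 in the wildtype and 5.24 and 5.27 in the K43M lists (limma, Benjamini-Hochberg adjusted p = 0.512). The difference between these neighbouring regions was not tested.

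Irf3 (chr7:44997648-45002848, plus strand) lies in a dense stretch with 6 other protein-coding genes in its window, and it had no distal region. Its promoter is shared with Bcl2l12, which runs the other way, so the value belongs to both genes: 7.71 and 7.51 in the wildtype and 7.48 and 9.14 in the K43M lists. The groups overlapped, with a log2 difference of 0.12 ± 0.19 (limma, Benjamini-Hochberg adjusted p = 0.866). A second region in its promoter window, with the summit at -1025 bp in a coding exon of Bcl2l12, had a peak in WT replicate 2 alone (4.24). The strongest other region was the promoter of Prmt1, an arginine methyltransferase, with 9.46 and 11.5 in the wildtype and 10.5 and 9.78 in the K43M lists, which lay between the wildtype values.

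Irf5 (chr6:29526625-29541871, plus strand) had the weakest promoter of the family. The region at its upstream start had 3.27 in WT unnumbered, no peak in WT replicate 2, and 5.57 and 4.83 in the K43M lists. Pileups there were 21 in WT unnumbered against 47 and 33 in the K43M lists. An internal promoter 2579 bp into the gene was open in all lists and lay lower in both K43M lists, with 6.01 and 5.54 in the wildtype and 4.92 and 4.95 in the K43M lists. Its log2 difference was -0.22 ± 0.20 (limma, Benjamini-Hochberg adjusted p = 0.722). Upstream, a region at -14457 bp was open in all lists with 5.94 and 7.92 in the wildtype and 6.82 and 4.94 in the K43M lists. Irf5 also held a strictly K43M-only region, chr6:29536616-29537159, whose summit lies in the 3′ UTR. It had fold enrichments of 6.85 and 5.14 and pileups of 16 and 10, and the nearest peaks of the wildtype lists were 7250 and 7155 bp away. With a minimum −log10 q of 5 it was left in a single list.

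Irf7 (chr7:141262706-141266481, minus strand) is the shortest of the genes and had 3 regions. Its main promoter region had 5.83 and 5.91 in the wildtype and 4.61 and 7.0 in the K43M lists, which enclosed the wildtype values (log2 difference -0.05 ± 0.25; limma, Benjamini-Hochberg adjusted p = 0.966). A strictly K43M-only region, chr7:141264957-141265408, had its summit in a coding exon of Irf7 and lay in the promoter window of an internal start. It had 5.82 and 3.91, with pileups of 33 and 19. The wildtype lists had their nearest peaks 195 and 166 bp away. It was also strictly K43M-only with a minimum −log10 q of 5, with equal numbers of peaks per list and when only peaks with near summits were merged. The only region outside the promoters of Irf7, in that of Cdhr5, was a peak of 4.14 in K43M replicate 2.

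Irf9 (chr14:55603571-55610030, plus strand) had the strongest promoter of the family and, like Irf3, no distal region among 9 protein-coding neighbours. The promoter region, with its summit 532 bp into the gene, had 12.1 and 12.7 in the wildtype and 14.2 and 9.84 in the K43M lists, so the wildtype values lay between the K43M ones. Its log2 difference was -0.07 ± 0.15 (limma, Benjamini-Hochberg adjusted p = 0.911). The promoter of the proteasome activator gene Psme1 in the same window had 12.3 and 13.9 in the wildtype and 11.4 and 10.3 in the K43M lists (-0.27 ± 0.12; limma, Benjamini-Hochberg adjusted p = 0.41).

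Irf8 (chr8:120736358-120756694, plus strand) had 11 regions, of which 5 were open in all lists. Its promoter region, which holds the pair of GAS matches shown above, had fold enrichments of 11.4 and 11.8 in the wildtype and 8.95 and 8.99 in the K43M lists. The groups did not overlap, and each genotype's lists lay close together. The log2 difference was -0.37 ± 0.14 and did not pass the threshold (limma, unadjusted p = 0.0211, Benjamini-Hochberg adjusted p = 0.306). Pileups at the summit were 67 and 55 in the wildtype and 62 and 54 in the K43M lists, while the local background was 4.96 and 3.76 in the wildtype and 6.04 and 5.12 in the K43M lists. On pileups the difference was 0.04 ± 0.16 (limma, Benjamini-Hochberg adjusted p = 0.935), and the part of the background in the lower fold enrichment was not tested. An intronic region 11161 bp into the gene had 7.82 and 6.88 in the wildtype and 4.86 and 6.33 in the K43M lists (-0.40 ± 0.22; limma, Benjamini-Hochberg adjusted p = 0.51). The strongest region outside its own promoter lay at -11003 bp, in the promoter window of another gene, Gm18709. It had 10.9 and 9.43 in the wildtype and 10.2 and 10.1 in the K43M lists, so the groups overlapped. The strictly wildtype-only region chr8:120760292-120760622, downstream of the gene, was weak. It had fold enrichments of 3.90 and 3.08, and K43M peaks stood 1959 and 1948 bp away. With a minimum −log10 q of 5 it was found in a single list.

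Irf4 (chr13:30749226-30766976, plus strand) had 6 regions, and no protein-coding neighbour. Its promoter had fold enrichments of 8.73 and 10.3 in the wildtype and 7.99 and 7.47 in the K43M lists. The groups did not overlap, with a log2 difference of -0.29 ± 0.17 (limma, Benjamini-Hochberg adjusted p = 0.534). Pileups at its summit lay further apart, with 43 and 46 in the wildtype and 26 and 22 in the K43M lists, a log2 difference of -0.79 ± 0.25 (limma, Benjamini-Hochberg adjusted p = 0.0814). The local background there was 4.04 and 3.58 in the wildtype and 2.38 and 2.08 in the K43M lists. The constant added to both numbers of the fold enrichment therefore lowered the K43M values more. Whether the groups would be apart without that constant was not tested. An intronic region at 12391 bp had pileups of 22, 13, 8 and 11 and fold enrichments of 7.06, 5.30, 4.28 and 6.06.

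The strictly wildtype-only region chr13:30786165-30786611, 37116 bp from the 5′ end of Irf4 and in a noncoding exon of the long noncoding RNA gene Gm29675, was the strongest of the 4 strict regions. It had fold enrichments of 10.8 and 8.10 and pileups of 35 and 22, and the nearest K43M peaks were 24495 and 24637 bp away. The lowest pileups called as peaks on chromosome 13 were 7 and 6 in the K43M lists. Ranked by the lower of its percentiles in the wildtype lists, it was number 121 of 2299 strictly wildtype-only regions of the genome. It kept its pattern under all 3 other ways of choosing or merging the peaks that were tried. The wildtype lists had 4 and 4 peaks in the Irf4 window and the K43M lists 2 and 3.

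Around Irf4 the local background itself differed between the genotypes. At the 54 shared regions within 5 Mb of Irf4, the median log2 background relative to the autosomal median of the same list was -0.23 and -0.30 in the wildtype and -1.33 and -1.30 in the K43M lists. The mean difference was -1.05, and the corresponding differences in pileup and in fold enrichment were -0.84 and -0.12. The pileup difference at the Irf4 promoter was thus close to the median of the regions around it. In the same neighbourhood, 34 regions were strictly wildtype-only and 1 was strictly K43M-only, whereas the neighbourhoods of the other members held 3 to 16 and 11 to 35. Over the whole of chromosome 13 the background differed by -0.49, and it was lower in the K43M lists in 12 of 12 bins of 10 Mb. Around the other members the differences ran from -0.29 at Irf5 to 0.31 at Irf8. The part of this background in the Irf4 results was not tested. Fewer copies of a stretch of chromosome and fewer cuts per copy cannot be told apart in these lists.

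**Figure D3:**
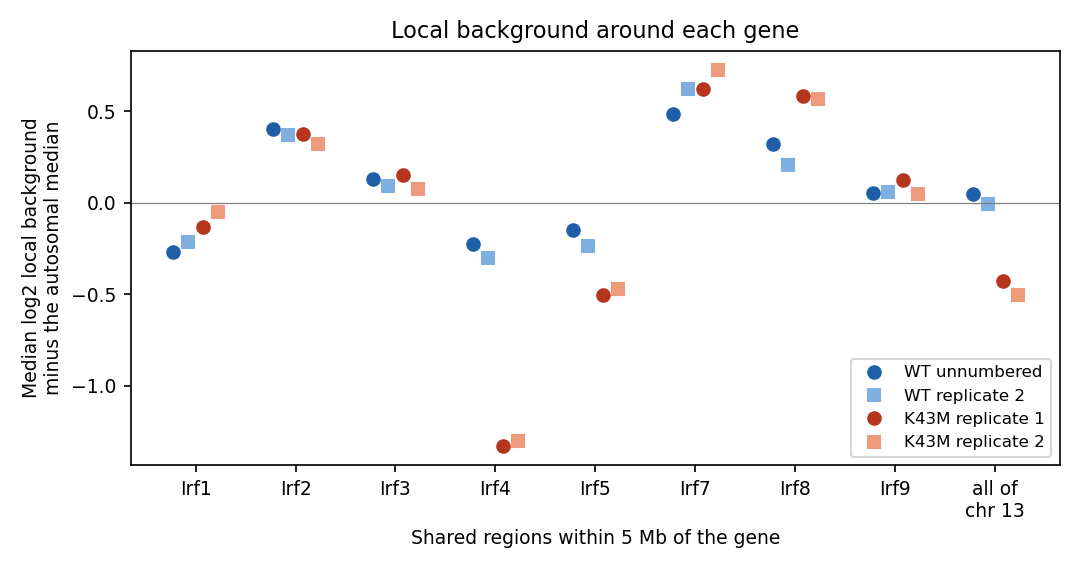
Median log2 local background at the shared regions within 5 Mb of each IRF gene, and on all of chromosome 13, relative to the autosomal median of the same list (vertical axis), with blue points for the wildtype and red points for the K43M lists. Both K43M points of Irf4 lie at -1.33 and -1.30, below all others, and those of Irf8 lie above its wildtype points.

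Over the 21012 regions open in all 4 lists, limma with median-centred log2 fold enrichment called 23 at an adjusted p below 0.05, which is 0.109%, with 13 higher and 10 lower in K43M. None of the 28 shared regions in the IRF windows was among them, and the lowest Benjamini-Hochberg adjusted p of limma there was 0.196. At an unadjusted p below 0.05 there were 2 of 28, the Irf8 promoter and the region downstream of Irf2, beside 12.2% of all shared regions. The difference K43M minus wildtype had a median of -0.07 over the 28 regions and 0.00145 over all, and it ranged from -0.40 to 0.65. Both K43M values lay above both wildtype values in 7 of the 28 regions (background 21.2%) and below them in 10 of them (35.7%, background 20.5%). An exact permutation test of a single region with 2 lists against 2 cannot give a two-sided p below 0.333, so none is reported.

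**Figure D4:**
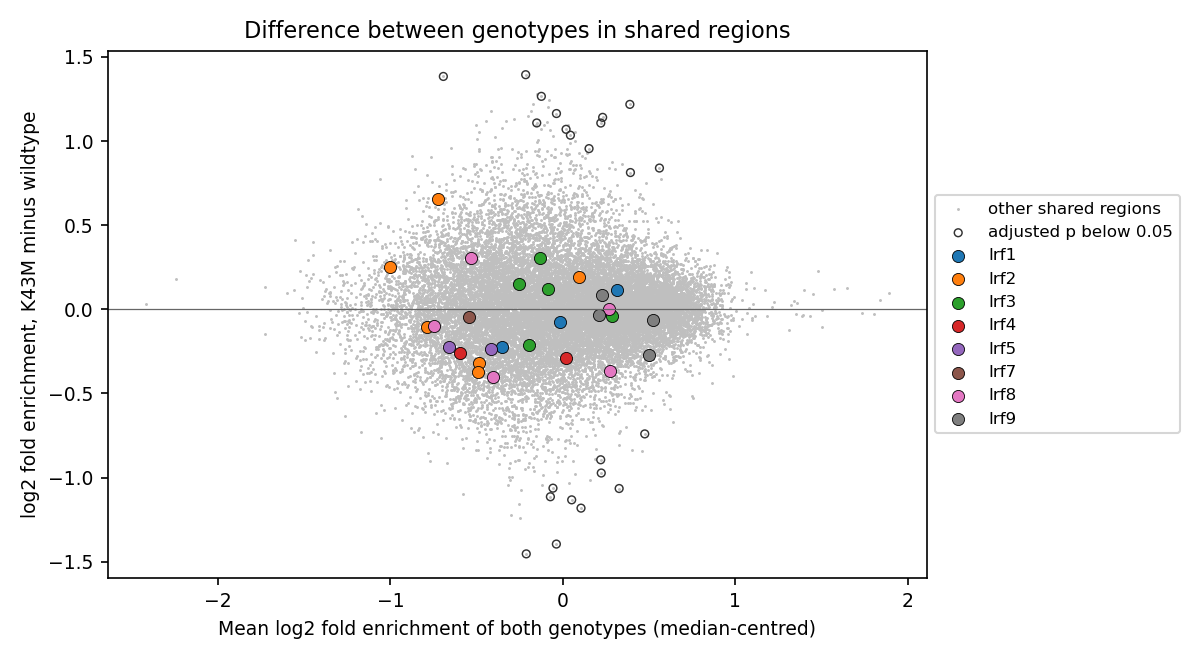
Log2 fold enrichment K43M minus wildtype (vertical axis) against the mean of both genotypes (horizontal axis, median-centred) for the 21012 shared regions in grey, with open circles for those at an adjusted p below 0.05 and coloured points for the 28 regions in the IRF windows. The coloured points lie between -0.40 and 0.65, within the grey cloud.

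The genes that act with the IRFs were described by their promoter peaks. The interferon receptor genes Ifnar1, Ifnar2, Ifngr1 and Ifngr2, the kinase genes Jak1, Jak2 and Tyk2, and Stat2 each had a promoter peak in all 4 lists. Over all protein-coding genes the share with such a peak was 47.6%. The highest were those of Stat2, the partner of IRF9, with 14.5 and 13.99 in the wildtype and 14.98 and 15.4 in the K43M lists. Both K43M values lay above both wildtype values in 4 of these genes, Ifnar1, Jak2, Tyk2 and Stat2 (background 21.5%), and below them in 0 (background 18.3%). A promoter peak in all 4 lists was also present at 8 of 8 genes that activate IRF3, IRF5 and IRF7 (background 47.6%). Among these, both K43M values lay below both wildtype values in 1 gene (background 18.3%) and above them in 1 (background 21.5%). The first was Tbk1, the kinase that phosphorylates IRF3, with 11.4 and 12.0 in the wildtype and 9.21 and 6.78 in the K43M lists. The other was Tmem173, which encodes the adaptor STING, with 7.68 and 8.20 in the wildtype and 8.21 and 8.39 in the K43M lists. The 3 genes for IRF2-binding proteins were open in all lists too (background 47.6%). Of 8 genes for partners of IRF4 and IRF8, 6 were open in all lists (background 47.6%). The other 2 had a promoter peak in the K43M lists only (background 2.00%). These were Batf3, an AP-1 protein that works with IRF8, with 5.04 and 4.75, and Ikzf1, which encodes Ikaros, with 5.50 and 3.09. Spi1, encoding PU.1, had 7.77 and 9.86 in the wildtype and 8.24 and 9.72 in the K43M lists, so its groups overlapped. Of the 6 open in all lists, both K43M values lay below both wildtype values in 2, Batf and Tcf3 (background 18.3%). They lay above them in 1, Ets1 (background 21.5%). Batf had 8.73 and 8.49 in the wildtype and 5.51 and 5.49 in the K43M lists. The 5 interferon genes Ifnb1, Ifna4, Ifng, Ifnl2 and Ifnl3 had no promoter peak in any list.

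For each IRF gene the protein-coding gene with the most similar promoter values was found by the Euclidean distance of the log2 fold enrichments over the 4 lists. It was Bcl2l12 for Irf3, at a distance of 0 because both share a promoter. For Irf4 it was Zfp280d (0.0271), for Irf7 Grina (0.036), for Irf1 Ears2 (0.0451), for Irf2 Syncrip (0.0456), for Irf8 Polr1a (0.0474), for Irf9 Clcn5 (0.0633) and for Irf5 Smarcd3 (0.0715). With 4 points each, this describes likeness of values in these lists only.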

How the data were processed

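ATAC-seq was measured in 4 lines. The authors trimmed reads with Trimmomatic 0.36, aligned them with BWA 0.7.15 to mm10 and called peaks per line with MACS2 2.1.0. The deposited peak lists give fold enrichment (a ratio to the local background), −log10 p and −log10 q per peak, and hold no read totals. The summit pileup and local background of each peak were recovered from the deposited fold enrichment and −log10 p within 0.001 for 100% of peaks, and their medians of 22 to 26 cut sites set the precision. Peaks of the 4 lists sharing at least 1 bp were merged. Genes came from GENCODE release 21 (mouse) and sequences from RefSeq and the GRCm38 genome. Promoters ran from 2000 bp before to 200 bp after each start. In regions open in all lists, log2 fold enrichment (the highest peak of each list), median-centred, was compared with limma 3.58.1 with a trend in R 4.3.3, with Benjamini-Hochberg adjustment over all 21012 regions and a threshold of 0.05. On simulated data for this comparison, with 200 of 21012 regions changed by 1 on the log2 scale, the fit called 206 regions, 195 of them changed ones. The simulated regions all had the same spread and varied independently, unlike the real ones. The change of 1 is larger than any difference in the IRF windows (-0.40 to 0.65), so the simulation does not show how often differences of that size would be called. Of the gene lists, 2 genes are not reported here. The members, lists and motifs were chosen with earlier results of these data known. All 8 members were named, and regions were given in full where they were a promoter of a member, strictly 1-genotype, the strongest non-promoter region of a member, or called; other shared regions named in the text were chosen after their values were seen. The alternatives tried concerned the q-value minimum, equal list sizes, merging by summits, window width, transcripts, normalization and single lists left out.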

Additional observations from a re-analysis of the deposited data

How the results depend on the processing

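All 8 genes kept a promoter peak in every list under each of the alternatives tried for it. With a window of 10 kb in place of 30 kb, 17 regions were open in all lists and 1 was strictly wildtype-only. With 60 kb there were 96 regions, of which 48 were open in all lists, 4 strictly wildtype-only and 4 strictly K43M-only. Leaving out 1 list relaxes the strict patterns: the count of wildtype-only regions ran from 2 to 8 (8 without WT unnumbered, 6 without WT replicate 2, 4 without K43M replicate 1) and that of K43M-only regions from 3 to 8 (5 without WT unnumbered, 8 without K43M replicate 1, 6 without K43M replicate 2). The limma calls over all shared regions numbered 0 with no centring (2327 at an unadjusted p below 0.05), 0 without a trend (2610), 10 with quantile normalization, 39 at a minimum −log10 q of 5, 51 when peaks with near summits were merged, and 887 on summit pileups. Leaving out 1 list gave 0 to 449 calls, with 370 without WT unnumbered, 449 without WT replicate 2 and 0 without either K43M list (2399 and 2244 at an unadjusted p below 0.05). In the IRF windows there was 1 call on summit pileups, the region downstream of Irf2, and none under the other alternatives tried. The cause of these changes was not tested. No promoter difference passed the threshold in any alternative in which it was fitted. The Irf3 and Irf7 promoters had a value in 10 of 11 alternatives, and none when peaks with near summits were merged. The sign of the difference was not the reported one on summit pileups at Irf7, Irf8 and Irf9, without K43M replicate 1 at Irf7, and without K43M replicate 2 at Irf1, Irf3 and Irf9. Single lists also set the size: the log2 difference at the Irf2 promoter (0.19) was 0.39 without K43M replicate 1 and 0.00423 without K43M replicate 2, and that at Irf4 (-0.29) was -0.18 without WT replicate 2. No paired analysis was possible because the genotypes share fewer than 2 replicate numbers in the labels. The lists give peaks only, so an absent peak limits the signal to below the caller's threshold and does not show closed chromatin.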
